A study of Homo sapiens with 62 samples.

Results

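9 genes of the interleukin 6 (IL-6) cytokine family and its signalling chain were followed through SLAM-seq libraries of 2 human pancreatic ductal adenocarcinoma (PDAC) cell lines. They were 9 of the 29794 genes in the deposited tables. The ligands were CLCF1, LIF, IL6 and IL11, the receptor chains were IL6ST, LIFR and OSMR, and the downstream genes were the transcription factor STAT3 and the feedback inhibitor SOCS3. The 9 genes were chosen by name, and CLCF1 had been selected because it was lower after KLF5 degradation in T3M-4 and not in AsPC-1 cells. The values of all 9 genes in that comparison are therefore given as a description, without a test.

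IL-6 family cytokines are secreted proteins that signal through a shared receptor chain, gp130, which is encoded by IL6ST. LIFR and OSMR are partner chains that pair with gp130 for LIF, CLCF1 or oncostatin M. Some ligands, IL-6 and IL-11 among them, first bind further receptor chains. Receptor assembly activates JAK kinases, which phosphorylate STAT3, and STAT3 induces SOCS3, which binds the receptor complex and damps the signal. In pancreatic cancer, LIF and IL-6 are known as cytokines of the tumour and its stroma that act on epithelial cells through STAT3.

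All 62 libraries carried the genotype FKBP12-F36V-FLAG-KLF5_sgEndogenousKLF5, in which the endogenous KLF5 gene had been disrupted and a KLF5 transgene fused to a degradable FKBP12 tag took its place, so the controls carried the tag as well. AsPC-1 stood for the classical subtype of PDAC and T3M-4 for the basal-like subtype, with 1 cell line for each. Cells received the degrader dTAGv-1 (hereafter dTAG) or its inactive analogue dTAG-NEG (NEG) for 4 h, with 10 libraries each in AsPC-1 and 4 each in T3M-4. The RUVBL1/2 ATPase inhibitor CB-6644 was given for 4 h to 5 AsPC-1 and 4 T3M-4 libraries and for 12 h to 4 AsPC-1 libraries. The CDK9 inhibitor NVP-2 was given for 4 h to 4 libraries of each line, and the solvent DMSO served as control with 5 AsPC-1 and 4 T3M-4 libraries at 4 h and 4 AsPC-1 libraries at 12 h. Labelling with 4-thiouridine for the last 2 h marks newly made RNA by T>C conversions in the reads, and 3′ end reads were counted over annotated 3′UTR exons. Libraries of a group came from 2 experiments, or from 3 for dTAG and NEG in AsPC-1, so p-values measure the spread between libraries, part of which may be technical. The 12 h libraries carry no experiment number. In AsPC-1 the labels place the NVP-2 libraries in batch 2 and their 4 h DMSO controls in batch 1, so batch and treatment cannot be told apart there by the DMSO comparison alone.

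AsPC-1 libraries held 2240998 to 18311982 T>C reads and 82676553 to 200298262 reads in all. T3M-4 libraries held 3714015 to 27982537 T>C reads and 111132257 to 244524608 reads in all. The lowest T>C totals were those after NVP-2. The line labels were checked on markers in DMSO at 4 h: all 5 epithelial markers reached a median of 1 CPM (a count scaled by the library total) in both lines, all 5 classical markers did in AsPC-1 and 2 of 5 in T3M-4, and 1 of 5 basal-like markers did in AsPC-1 (S100A2) and all 5 in T3M-4. Of the markers of other cell types, 1 of 6 fibroblast markers reached that level in each line, 2 of 5 leukocyte markers in AsPC-1 and 1 of 5 in T3M-4, and 0 of 3 endothelial markers in either. Those that reached it were the leukocyte markers CD68 in both lines and CD14 in AsPC-1, and the fibroblast markers LUM in AsPC-1 and COL1A1 in T3M-4. The leukocyte gene PTPRC and the fibroblast gene DCN were among those under 1 CPM in both.

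The genes lie on 6 chromosomes of GRCh38. CLCF1 is on chromosome 11 (67364168 to 67374177, minus strand), and its annotated span overlaps RAD9A on the plus strand and the unnamed gene ENSG00000256514 on the minus strand, so reads in the overlap could belong to either. LIF is on chromosome 22 (30240453 to 30246759, minus strand) beside an overlapping antisense gene, LIF-AS1. IL6 is on chromosome 7 (22725884 to 22732002, plus strand) and IL11 on chromosome 19 (55364382 to 55370463, minus strand). Chromosome 5 carries all 3 receptor genes, IL6ST (55935095 to 55995022, minus strand, overlapped by ENSG00000262211 on the plus strand), LIFR (38474668 to 38608354, minus strand) and OSMR (38845858 to 38945596, plus strand), the last 2 being neighbours. STAT3 (42313324 to 42388540) and SOCS3 (78356778 to 78360077) are both on the minus strand of chromosome 17.

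Promoter sequence was available from RefSeq (GRCh38.p14) for 7 of the 9 genes, as 10 windows of 250 bases before to 50 bases after a transcript start, and CLCF1 and LIF had no entry. KLF5 binds GC-rich elements of the CACCC or GC-box kind, so the windows were searched on both strands for CCNCNCCC, with overlapping matches counted. The promoters of the genes with the largest changes after KLF5 degradation in T3M-4 that had an entry, IL11 and LIFR, are shown here, each as the 250 bases before the start, on the minus strand, with the CCNCNCCC matches on either strand in capitals.
IL11, chr19:55370464-55370713: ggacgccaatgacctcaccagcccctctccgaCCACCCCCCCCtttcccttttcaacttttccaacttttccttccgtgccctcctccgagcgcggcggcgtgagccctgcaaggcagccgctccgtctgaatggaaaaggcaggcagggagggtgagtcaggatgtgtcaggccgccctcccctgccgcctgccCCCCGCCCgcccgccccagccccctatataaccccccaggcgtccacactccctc
LIFR, chr5:38556647-38556896: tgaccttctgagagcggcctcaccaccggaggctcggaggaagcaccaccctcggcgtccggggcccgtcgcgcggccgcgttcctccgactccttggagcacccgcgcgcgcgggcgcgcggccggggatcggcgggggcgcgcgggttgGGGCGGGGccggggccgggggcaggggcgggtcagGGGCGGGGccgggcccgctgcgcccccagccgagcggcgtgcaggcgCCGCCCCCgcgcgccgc

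The IL11 window held 4 matches over its full length, 3 of them in the bases shown, and this LIFR start held 3, whereas the other 2 LIFR starts held 0. At least 1 match was found in windows of IL6 (3), IL6ST (4), OSMR (5), STAT3 (3) and 1 of the 2 SOCS3 starts (2). The same letters occurred in 56.2% of all 35116 promoters, so their presence does not set these genes apart. The STAT-type letters TTCNNNGAA were found in the windows of the other 2 LIFR starts, once each, and in 7.66% of all promoters. The AP-1-type letters TGANTCA were found once each in the windows of IL11 and OSMR and in 7.71% of all promoters. These matches are descriptions of sequence, not binding sites.

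Relative to the typical gene, newly made CLCF1 RNA was lower after 4 h of KLF5 degradation in T3M-4 and not in AsPC-1 cells. This is the pattern that chose the gene. CLCF1 encodes cardiotrophin-like cytokine factor 1, a cytokine whose signal passes through gp130 and LIFR. T>C CPM are given after TMM scaling, which equalises the typical gene across the libraries of a line. The 4 T3M-4 dTAG libraries held 7.21, 5.88, 5.86 and 4.52 T>C CPM of CLCF1, and the 4 NEG libraries held 28.9, 15.8, 26.7 and 20.3. The groups did not overlap, and the lowest NEG library was above the highest dTAG library. The log2 fold change was -1.98 with an SE of 0.27, and within the 2 experiments the means differed by -1.78 and -2.18 on the log2 scale. Among all genes tested, 0.834% were called in this comparison by edgeR's quasi-likelihood test at a Benjamini-Hochberg adjusted p under 0.05, and for these 9 genes nothing is read from that share.

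In AsPC-1 the 10 dTAG libraries ranged from 8.33 to 16.03 T>C CPM of CLCF1 with a mean of 11.5 ± 2.62 (SD), and the 10 NEG libraries from 4.798 to 15.9 with a mean of 12.2 ± 3.05. The ranges overlapped nearly throughout. Its log2 fold change was -0.07 with an SE of 0.17, and the 3 experiments gave -0.08, 0.18 and -0.23. In this line 2.4% of all genes tested were called after dTAG, 54 higher and 227 lower. Scaling by all reads shifted the median of all genes there by -0.26 on the log2 scale and gave 10 higher and 1180 lower. With the replicate numbers as a block (pairs by experiment, or by full label) edgeR called 447 or 867 genes in AsPC-1, 354 or 298 in place of 112 in T3M-4, and 29 or 81 for the difference between lines. The fold change in T3M-4 minus that in AsPC-1 was -1.88 on the log2 scale with an SE of 0.32, in a fit across both lines in which 0.0426% of genes were called, 1 higher and 5 lower. With scaling by all reads 20 were higher and 4 lower, and the median of all genes moved by 0.33.

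**Figure D1:**
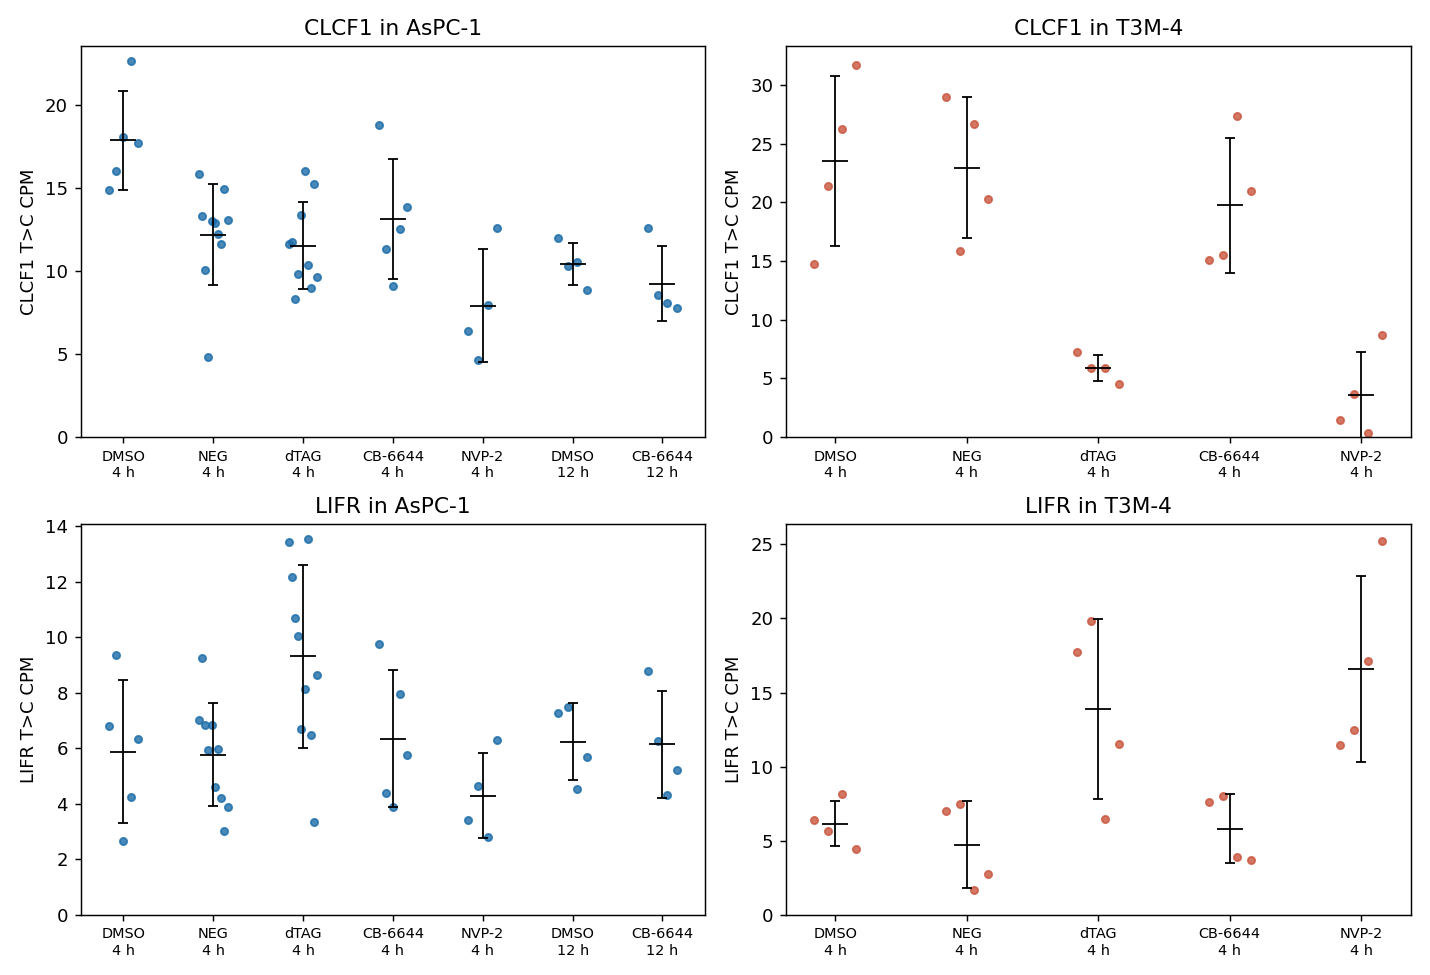
T>C CPM (linear axis, TMM-scaled within each line) of CLCF1 in the upper panels and LIFR in the lower panels, by treatment group, for AsPC-1 on the left and T3M-4 on the right. Each point is 1 library and the bars give mean ± SD, with the lower end of 1 bar falling below 0. In T3M-4 the dTAG libraries of CLCF1 sit at 4.52 to 7.21, below all NEG and DMSO libraries, while in AsPC-1 dTAG and NEG libraries overlap.

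The other ligands were also lower after dTAG in T3M-4 by their group means, with less separation between libraries. LIF, leukaemia inhibitory factor, held 2.196, 2.76, 2.57 and 6.67 T>C CPM in the dTAG libraries against 8.84, 4.73, 11.3 and 6.16 in the NEG libraries. 3 of the 4 dTAG libraries were below all NEG libraries, and the fourth lay among them. Its log2 fold change was -1.14 with an SE of 0.44. IL11, a cytokine that signals through its own receptor chain and gp130, held 7.91, 8.86, 2.21 and 0.492 T>C CPM after dTAG and 15.5, 20.0, 10.2 and 8.03 after NEG. The level depended on the experiment: experiment 1 held the higher pair of each group, and the difference was -1.08 within experiment 1 and -2.75 within experiment 2 on the log2 scale. For IL11 the log2 fold change was -1.47 with an SE of 0.68. IL6 was between 0.403 and 5.78 T>C CPM after dTAG and between 0.297 and 5.62 after NEG, and its log2 fold change of -0.58 was smaller than its SE of 0.86.

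In AsPC-1, LIF was at 22.5 T>C CPM in the mean of the dTAG libraries and 29.5 in that of the NEG libraries, a log2 fold change of -0.38 with an SE of 0.27. The experiments differed, with log2 differences of means of -1.003, -0.45 and 0.03 in experiments 1, 2 and 3. IL6 and IL11 did not pass the filter on low counts in this line, where T>C reads of IL6 were found in 6 of 42 libraries (3 reads at most in any) and of IL11 in 20 of 42 (21 at most).

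LIFR, unlike the ligands, was higher after dTAG in the group means of both lines. It encodes the LIF receptor chain, which also serves CLCF1. In T3M-4 the dTAG libraries held 17.7, 19.8, 6.49 and 11.5 T>C CPM and the NEG libraries 7.004, 7.49, 1.69 and 2.72. The dTAG libraries were higher than the NEG libraries of their own experiment throughout, and 1 dTAG library of experiment 2 was below both NEG libraries of experiment 1. The log2 fold change was 1.54 with an SE of 0.50, and the experiments gave 1.37 and 2.03. In AsPC-1 the dTAG libraries ranged from 3.34 to 13.5 with a median of 9.35, and the NEG libraries from 3.01 to 9.26 with a median of 5.97. 5 of the 10 dTAG libraries were above every NEG library. The groups differed by a log2 fold change of 0.71 with an SE of 0.23, and the 3 experiments gave 0.67, 0.37 and 0.90.

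The shared receptor chain, the oncostatin M receptor chain and STAT3 had small log2 fold changes after dTAG, with overlapping libraries. IL6ST had log2 fold changes of -0.07 (SE 0.19) in T3M-4 and 0.23 (SE 0.13) in AsPC-1, the latter turning to -0.08 when libraries were scaled by all reads instead of by T>C reads. OSMR had -0.12 (SE 0.26) and 0.02 (SE 0.13), the latter turning to -0.20 under scaling by all reads. STAT3 had 0.25 (SE 0.26) and -0.18 (SE 0.23). SOCS3, whose protein restrains gp130 signalling, held 24.9, 40.9, 35.0 and 32.8 T>C CPM after dTAG in T3M-4 against 76.7, 34.3, 51.7 and 60.1 after NEG, with 2 of 4 dTAG libraries below all NEG libraries. Its log2 fold change was -0.75 (SE 0.26) in T3M-4 and 0.04 (SE 0.14) in AsPC-1, the latter turning to -0.23 under scaling by all reads. The difference between lines was -0.76 (SE 0.27) for SOCS3 and 0.85 (SE 0.52) for LIFR.

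40 further genes of the pathway were listed in 5 groups: other ligands, other receptor chains, JAK kinases and other STATs, other restraints of the pathway, and genes known as STAT3 targets. After dTAG in AsPC-1, 31 of them were tested, 0 were higher and 3 were lower, against the 2.4% of all genes called. All 3 were on the STAT3 target list. BCL3, a nuclear cofactor of NF-kappaB, was at 11.6 to 26.3 T>C CPM after dTAG and 30.6 to 92.5 after NEG, with no overlap and a log2 fold change of -1.66 (edgeR, SE 0.20, adjusted p = 4.28e-05). JUNB, an AP-1 subunit, fell by 1.34 (edgeR, SE 0.25, adjusted p = 0.00257) and CCND1, cyclin D1, fell by 0.52 (edgeR, SE 0.13, adjusted p = 0.0307), both on the log2 scale. Without experiment 1 or without experiment 3 the adjusted p was 0.153 or 0.0567 for JUNB and 0.405 or 0.133 for CCND1. In T3M-4, 31 were tested, 0 were higher and 2 were lower, against 0.834% of all genes. These were JUNB, which fell by 1.24 (edgeR, SE 0.21, adjusted p = 0.0276), and BCL2L1, which encodes the survival protein BCL-XL and fell by 1.104 (edgeR, SE 0.20, adjusted p = 0.0314), again on the log2 scale. Both genes had 4 of 4 dTAG libraries below all NEG libraries. The JUNB call was lost without any of 7 of the 8 libraries (adjusted p 0.0534 to 0.102), all but the NEG library 1-2, and the BCL2L1 call without any of 7 (adjusted p 0.0723 to 0.148), all but the dTAG library 1-1. The median log2 fold change over the list was 0.06 in AsPC-1 and -0.16 in T3M-4, beside 0.03 and 0.01 over all genes tested. None of the 34 genes tested in the difference between lines was called, where VEGFA had the smallest p (log2 difference -1.06, edgeR, SE 0.23, adjusted p = 0.0956), 824 of all genes had an unadjusted p under 0.05 and DESeq2 called 34 genes in all. With full replicate labels as a block, FOSL2, an AP-1 subunit, was called in that difference (-0.90, edgeR, SE 0.14, adjusted p = 0.00434).

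After RUVBL1/2 inhibition by CB-6644 none of the 9 genes passed the threshold in either line, at a background at which no gene at all was called. The share of genes called by edgeR was 0.0% for AsPC-1 and 0.0% for T3M-4 at 4 h, 0.0% for the 12 h treatment and 0.0% for the difference between lines. At an unadjusted p under 0.05 there were 482, 569, 473 and 511 genes, and DESeq2 called 0, 5, 20 and 4. So the comparison gives sizes with their errors, and a p that misses the threshold here does not show that a gene kept its level.

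LIF had the clearest separation after CB-6644. The AsPC-1 libraries treated for 4 h held 25.1, 22.6, 25.2, 23.6 and 23.2 T>C CPM, and the DMSO libraries 34.0, 35.3, 31.9, 48.9 and 43.2. All 5 treated libraries were below all 5 controls. The log2 fold change was -0.68 with an SE of 0.16 (edgeR unadjusted p = 0.000858, adjusted p = 0.980), and the experiments gave -0.47 and -0.98. In T3M-4 LIF was between 3.23 and 5.92 after CB-6644 and between 4.05 and 6.31 in DMSO, a log2 fold change of -0.23 (SE 0.32). At 12 h in AsPC-1 its log2 fold change was -0.42 (SE 0.40), with overlapping libraries. Those of CLCF1 were -0.44 (SE 0.22) at 4 h and -0.17 (SE 0.25) at 12 h in AsPC-1, and -0.25 (SE 0.28) in T3M-4. At 4 h in AsPC-1, 4 of 5 treated libraries of CLCF1 were below all controls.

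STAT3 differed in sign between the lines after CB-6644. In AsPC-1 the treated libraries held 111, 79.3, 71.5, 167 and 127 T>C CPM and the controls 261, 154, 87.4, 147 and 245, with overlap, and a log2 fold change of -0.68 (edgeR, SE 0.31, adjusted p = 0.980). In T3M-4 the treated libraries held 402, 379, 498 and 584 and the controls 350, 179, 343 and 419, also with overlap, and a log2 fold change of 0.54 (edgeR, SE 0.26, adjusted p = 0.994). The difference between lines was 1.19 (SE 0.44), the only one of the 7 genes tested there with an unadjusted edgeR p under 0.05 (0.0134), and its adjusted p was 1.00. SOCS3 was at 32.8, 26.9, 51.5 and 60.0 T>C CPM after CB-6644 in T3M-4 and at 44.6, 73.6, 66.9 and 77.4 in DMSO. 2 of the 4 treated libraries were below all controls, and its log2 fold change was -0.61 (edgeR, SE 0.28, adjusted p = 0.994). LIFR, which was higher after dTAG, had log2 fold changes of 0.11 (SE 0.37) in AsPC-1 and -0.07 (SE 0.35) in T3M-4. The remaining log2 fold changes lay between -0.25 (OSMR in AsPC-1, which turned to 0.13 in all reads) and 0.24 (IL11 in T3M-4) at 4 h. None of the pathway genes listed was called, of 30, 32, 31 and 33 tested. PIM1, a kinase gene induced by STAT3, had the smallest p among them, at 12 h in AsPC-1, with 28.8 to 49.8 T>C CPM in the treated and 60.1 to 116 in the control libraries and a log2 fold change of -1.03 (edgeR, SE 0.26, adjusted p = 0.998).

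**Figure D2:**
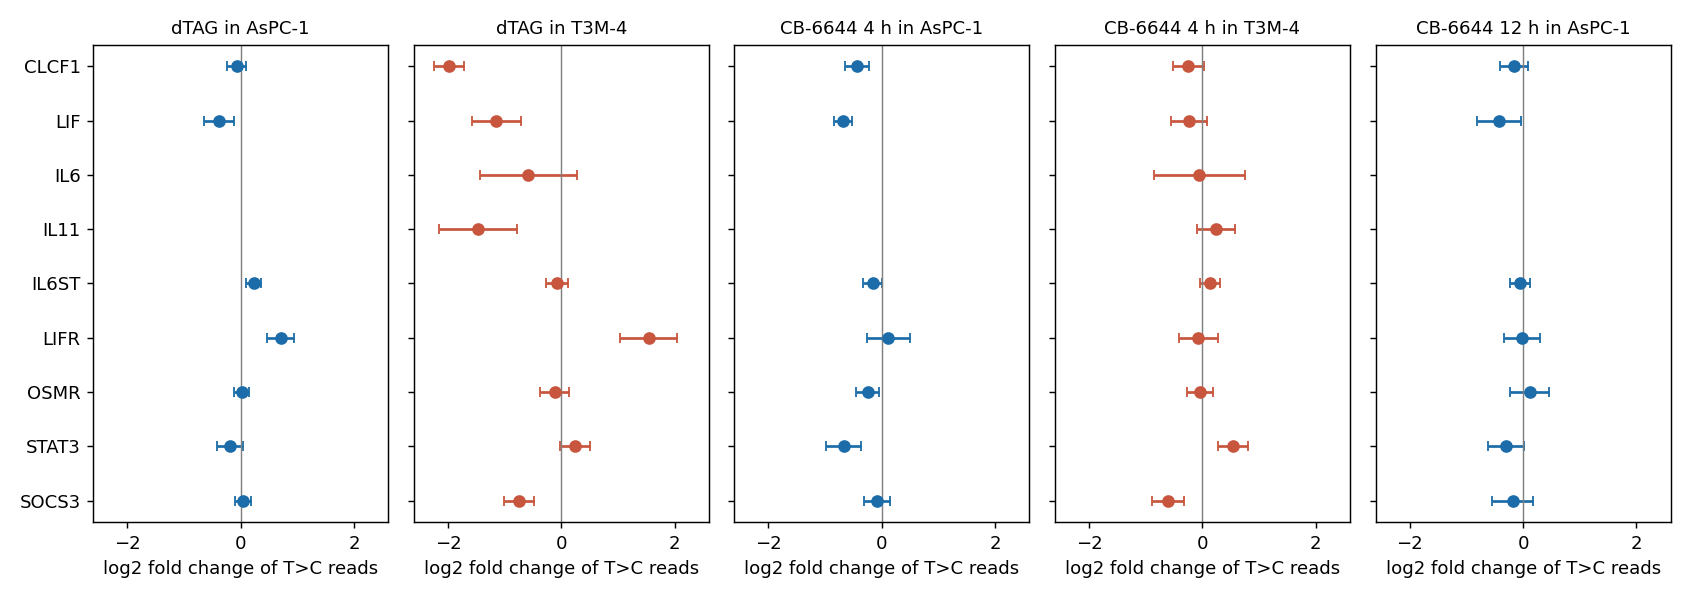
Log2 fold change of T>C reads (edgeR, TMM-scaled) with its SE as a bar for each of the 9 genes after dTAG against NEG and after CB-6644 against DMSO, in AsPC-1 (blue) and T3M-4 (red). Genes without a point did not pass the filter on low counts. The dTAG points carry no test, since CLCF1 was selected on them, with CLCF1 at -1.98 in T3M-4 and -0.07 in AsPC-1 and LIFR right of 0 in both lines, and none of the CB-6644 points passed the threshold.

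After CDK9 inhibition by NVP-2, new RNA of CLCF1 and SOCS3 was below that in DMSO in both lines, relative to the typical gene. In AsPC-1 the DMSO controls were of another batch, and the CLCF1 call was lost against controls of the NVP-2 batch. NVP-2 also lowered the labelled part of the whole library, from 10.05% ± 0.624 (SD, n = 5) of all reads in DMSO to 1.57% ± 0.239 (n = 4) in AsPC-1 and from 12.4% ± 1.56 (n = 4) to 2.24% ± 0.417 (n = 4) in T3M-4. A TMM-scaled change compares a gene with the other labelled RNA and does not see that fall. Under scaling by all reads, the median log2 fold change over all genes was -3.05 in AsPC-1 (-0.05 by TMM) and -2.97 in T3M-4 (-0.12 by TMM), and the split of calls went from 1488 higher and 2018 lower to 8 and 10650 in AsPC-1, and from 1523 and 1740 to 10 and 10526 in T3M-4. By TMM scaling 30.5% of genes tested were called in AsPC-1 and 26.7% in T3M-4. Of the 9 genes, 8 passed the filter in AsPC-1, where 0 rose and 2 fell, and 9 passed in T3M-4, where 2 rose and 2 fell. The count of genes called among the 9 is near the background in AsPC-1. In T3M-4 it is above the 26.7%, but on 9 genes nothing is read from that.

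SOCS3 had the largest fall of the 9 genes in both lines. In AsPC-1 the NVP-2 libraries held 1.71, 0, 0.469 and 1.26 T>C CPM, resting on 4, 0, 1 and 2 reads, and the DMSO libraries 11.6, 8.82, 9.59, 13.5 and 8.32. In T3M-4 they held 3.52, 2.77, 1.49 and 1.31, resting on 12, 12, 4 and 3 reads, against 44.6, 73.6, 66.9 and 77.4 in DMSO. Treated and control libraries did not overlap in either line. The log2 fold change was -3.51 (edgeR, SE 0.66, adjusted p = 0.00232) in AsPC-1 and -4.76 (edgeR, SE 0.44, adjusted p = 0.000268) in T3M-4. CLCF1 held 6.39, 4.66, 7.97 and 12.6 T>C CPM after NVP-2 in AsPC-1, below the 5 DMSO libraries at 14.9, 16.03, 18.1, 22.7 and 17.7. In T3M-4 it held 1.47, 3.69, 0.373 and 8.70, below the 4 DMSO libraries at 14.7, 21.4, 26.2 and 31.7. The log2 fold change was -1.12 (edgeR, SE 0.36, adjusted p = 0.0333) in AsPC-1 and -2.72 (edgeR, SE 0.71, adjusted p = 0.0169) in T3M-4.

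The CLCF1 call in AsPC-1 was not firm. It was lost without any of the DMSO libraries 1-2, 1-3, 2-1 and 2-2 or the NVP-2 libraries 1-1 and 1-2 (adjusted p 0.0627 to 0.0898). Against control libraries of the NVP-2 batch it was -0.62 (edgeR adjusted p = 0.269, NEG libraries of experiment 3) or -0.33 (edgeR adjusted p = 0.622, DMSO at 12 h), whereas SOCS3 stayed called at -3.35 (edgeR adjusted p = 0.00686) and -2.89 (edgeR adjusted p = 0.0240). In T3M-4 the CLCF1 call was lost without the DMSO library 2-2 (log2 fold change -2.52, edgeR adjusted p = 0.0562).

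LIFR and STAT3 rose in T3M-4 relative to the typical gene after NVP-2, and both fell when T>C reads were taken per all reads of the library. LIFR held 11.4, 12.5, 17.2 and 25.2 T>C CPM after NVP-2 against 6.36, 5.67, 8.13 and 4.44 in DMSO, with a log2 fold change of 1.46 (edgeR, SE 0.44, adjusted p = 0.0304) that became -1.48 (edgeR adjusted p = 0.0160) under scaling by all reads. STAT3 held 717, 582, 719 and 800 against 350, 179, 343 and 419, with 1.16 (edgeR, SE 0.30, adjusted p = 0.0157) that became -1.70 (edgeR adjusted p = 0.000490). Treated and control libraries of both genes did not overlap. The LIFR call was lost without the DMSO library 1-1, 1-2 or 2-2 or the NVP-2 library 2-2 (adjusted p 0.0565 to 0.0922). In AsPC-1 the log2 fold change was -0.40 (SE 0.51) for LIFR and 0.24 (SE 0.57) for STAT3, the latter turning to -2.73 under scaling by all reads. The difference between lines was 1.83 (edgeR, SE 0.65, adjusted p = 0.189) for LIFR and -1.62 (edgeR, SE 0.77, adjusted p = 0.356) for CLCF1, and none of the 8 genes tested was called, where 0.851% of all genes were, 2 of the 8 had an unadjusted p under 0.05 and 112 genes in all were called.

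LIF had all NVP-2 libraries below all controls in both lines without passing the threshold: 30.3, 13.97, 29.1 and 17.0 T>C CPM against 31.9 to 48.9 in AsPC-1, with -0.70 (edgeR, SE 0.31, adjusted p = 0.0992), and 3.22, 1.61, 1.12 and 0.435 against 4.05 to 6.31 in T3M-4, with -1.53 (edgeR, SE 0.66, adjusted p = 0.111). Without the NVP-2 library 1-1 the T3M-4 value was -2.14 (edgeR adjusted p = 0.0466). IL11 in T3M-4 split by experiment, with 18.5 and 18.9 T>C CPM in experiment 1 and 0.373 and 0 in experiment 2, so its log2 fold change of -0.22 had an SE of 1.01. OSMR in T3M-4 was at 21.7, 21.9, 8.95 and 9.57, likewise split by experiment, and its 0.61 (SE 0.43) turned to -2.14 under scaling by all reads. IL6ST had -0.12 (SE 0.28) in AsPC-1 and -0.35 (SE 0.45) in T3M-4.

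All reads also hold RNA made before labelling, and CLCF1 and SOCS3 fell there too, relative to the typical gene, in both lines within 4 h of NVP-2. All-read CPM are TMM-scaled as well and no spike-in was added. A rise or fall in them is therefore relative to the other RNA and does not give a change in amount. Among all genes 11.8% were called in AsPC-1 and 5.16% in T3M-4. CLCF1 fell from 2.53 to 3.95 CPM of all reads in DMSO to 0.459 to 1.11 after NVP-2 in AsPC-1 (log2 fold change -2.10, edgeR, SE 0.32, adjusted p = 0.00210), and from 2.83 to 4.84 to 0.538 to 1.01 in T3M-4 (-2.32, edgeR, SE 0.26, adjusted p = 0.00182). SOCS3 fell by 5.09 (edgeR, SE 0.66, adjusted p = 0.000891) and 4.19 (edgeR, SE 0.66, adjusted p = 0.00704) on the log2 scale. Against controls of its own batch in AsPC-1, CLCF1 was at -1.72 (edgeR adjusted p = 0.0125, NEG) and -1.45 (edgeR adjusted p = 0.0494, DMSO at 12 h). LIF fell in T3M-4 by 1.64 (edgeR, SE 0.35, adjusted p = 0.0254) and had -0.54 (edgeR, SE 0.23, adjusted p = 0.163) in AsPC-1. STAT3 rose in T3M-4 relative to the typical gene, from 507 to 795 CPM to 996 to 1218 (0.72, edgeR, SE 0.17, adjusted p = 0.0467).

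The LIF and STAT3 calls in all reads of T3M-4 were not firm, although their log2 fold changes kept their sign. With 1 library left out these were -1.885 to -1.498 for LIF and 0.604 to 0.816 for STAT3. The LIF call was lost without any of the 4 DMSO libraries or the NVP-2 libraries 2-1 and 2-2 (adjusted p 0.0624 to 0.0768), and the STAT3 call without any of the 8 libraries (0.0599 to 0.143). With the experiment as a block, which labels tie to batch in this line, 3 more genes were called: IL11 at -0.79 (edgeR adjusted p = 0.00892), IL6ST at 0.34 (edgeR adjusted p = 0.0450) and LIFR at 0.64 (edgeR adjusted p = 0.0376). The block raised the count of all genes called in T3M-4 to 2476.

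**Figure D3:**
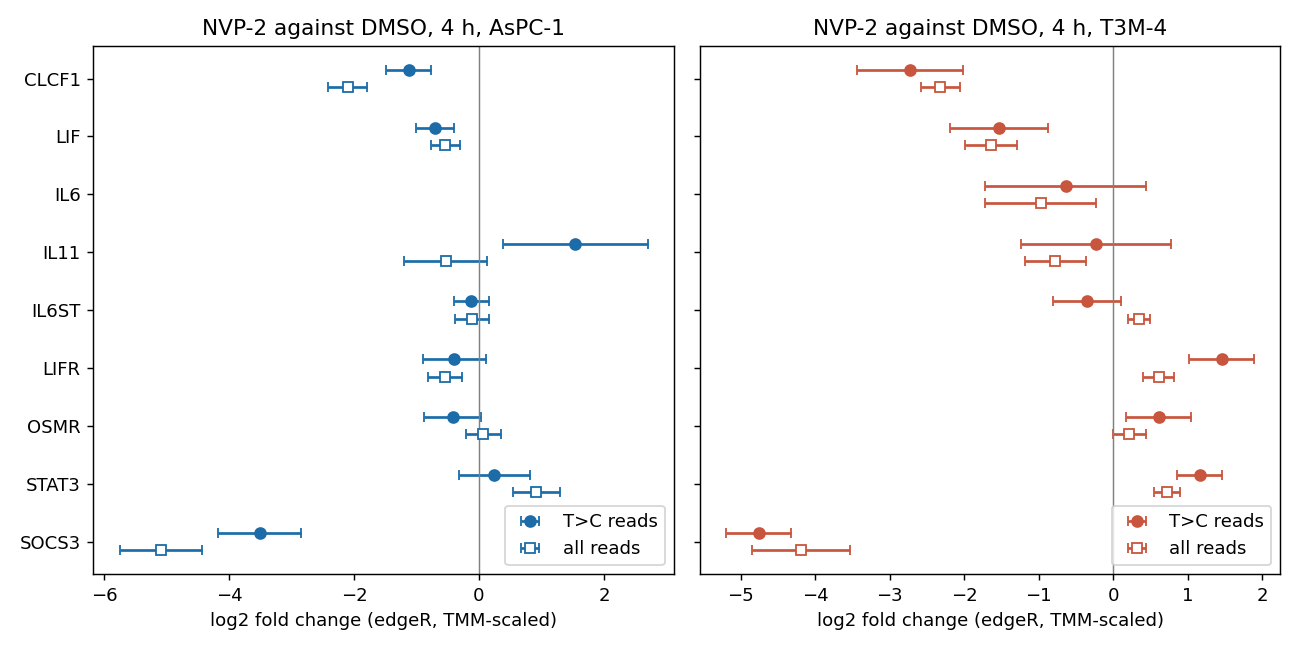
Log2 fold change with its SE as a bar after 4 h of NVP-2 against DMSO, for T>C reads (filled circles) and all reads (open squares), both TMM-scaled, in AsPC-1 (left) and T3M-4 (right). IL6 did not pass the filter in AsPC-1. CLCF1 and SOCS3 lie left of 0 by both reads in both lines, with SOCS3 between -5.09 and -3.51, and LIFR and STAT3 lie right of 0 in T3M-4, where scaling by all reads turns their T>C values to -1.48 and -1.70.

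Of the pathway genes listed, 29 were tested in T>C reads after NVP-2 in AsPC-1, with 2 higher and 7 lower beside 30.5% of all genes called (1488 higher, 2018 lower), and 31 in T3M-4, with 3 higher and 10 lower beside 26.7% (1523 higher, 1740 lower). The AsPC-1 count is near that background. Genes known as STAT3 targets were 12 of the 29 tested in AsPC-1, where 6 were lower and 1 higher, and 13 of the 31 in T3M-4, where 7 were lower and 0 higher. The median log2 fold change of the STAT3 target list was -1.02 in AsPC-1 and -1.13 in T3M-4, beside -0.05 and -0.12 over all genes. CEBPD, an acute-phase transcription factor, was at 5.11 to 5.67 T>C CPM after NVP-2 and 62.6 to 99.2 in DMSO in AsPC-1 (log2 fold change -3.76, edgeR, SE 0.28, adjusted p = 2.43e-05), and at 6.15 to 8.58 and 53.0 to 73.6 in T3M-4 (-3.02, edgeR, SE 0.32, adjusted p = 0.000294). MCL1, which encodes a short-lived survival protein, fell by 1.94 (SE 0.35) and 3.14 (SE 0.37), and FOSL2, an AP-1 subunit, by 2.14 (SE 0.30) and 1.62 (SE 0.30), on the log2 scale and past the threshold in both lines. In T3M-4 SOCS1, a restraint of JAK kinases related to SOCS3, had a median of 0 and a highest value of 0.746 T>C CPM after NVP-2 against 5.23 to 11.2 in DMSO. JAK1, the kinase bound to gp130, was higher by TMM in T3M-4 (312 to 992 against 132 to 171 T>C CPM), and its log2 fold change of 1.95 (edgeR, SE 0.36, adjusted p = 0.00332) became -0.99 under scaling by all reads. In all reads, again relative to the typical gene, 9 of 32 listed genes fell and 0 rose in AsPC-1, where 11.8% of all genes were called (484 higher, 1183 lower). In T3M-4 6 of 36 fell and 0 rose, where 5.16% of all genes were called and nearly all of those were lower (38 higher, 769 lower). JUNB was among those that fell in both lines, by 2.46 (edgeR, SE 0.31, adjusted p = 0.000805) and 2.69 (edgeR, SE 0.34, adjusted p = 0.00282) on the log2 scale.

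Without treatment, the largest log2 fold changes between the lines were those of the ligands IL6, IL11 and LIF. Levels are CPM of all reads in DMSO at 4 h, TMM-scaled over both lines, and 55.7% of all genes tested were called between the lines. LIF was the only one of the 9 that was lower in T3M-4, at 0.860, 0.837, 0.859 and 0.869 CPM against 5.69, 6.26, 5.18, 7.30 and 6.16 in AsPC-1 (log2 fold change -2.84, edgeR, SE 0.19, adjusted p = 8.74e-07). IL6 was nearly absent from AsPC-1, with 3 reads in total over 5 DMSO libraries, all in library 1-2. It had 405 reads over the 4 T3M-4 libraries, a ratio of CPM of 105 with a 95% counting interval of 35.7 to 512. Over all AsPC-1 libraries IL6 reads were found in 10 of 41 and never exceeded 6. IL11 had 2415 reads in T3M-4 and 109 in AsPC-1, a ratio of 17.2 with a counting interval of 14.2 to 21.1 (edgeR log2 fold change 4.13, SE 0.53, adjusted p = 9.02e-05). The intervals cover counting error only and take reads as independent of each other, which was not tested. The T3M-4 libraries themselves ranged from 0.191 to 1.44 CPM for IL6 and from 2.19 to 5.16 for IL11. In both genes experiment 1 held the higher pair. CLCF1 did not pass the threshold, at 2.84 to 4.6 CPM in T3M-4 and 2.57 to 4.01 in AsPC-1 (0.22, edgeR, SE 0.21, adjusted p = 0.399), although with NEG in place of DMSO libraries it was higher in T3M-4 (0.64, edgeR adjusted p = 0.00772).

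Among the receptor chains, IL6ST did not pass the threshold, at 155 to 187 CPM in T3M-4 and 102 to 190 in AsPC-1 (0.17, edgeR, SE 0.20, adjusted p = 0.479). LIFR was higher in T3M-4, at 3.32 to 5.30 against 1.27 to 2.36 CPM (1.203, edgeR, SE 0.24, adjusted p = 0.00149), and OSMR was higher at 7.21 to 9.75 against 4.94 to 6.23 CPM (0.58, edgeR, SE 0.16, adjusted p = 0.0124). In T>C reads neither was called, with log2 fold changes of 0.20 (edgeR adjusted p = 0.682) for LIFR and 0.36 (edgeR adjusted p = 0.189) for OSMR. STAT3 was higher in T3M-4, at 489 to 755 against 166 to 279 CPM (1.49, edgeR, SE 0.19, adjusted p = 8.42e-05), and so was SOCS3, at 7.86 to 12.5 against 1.54 to 2.35 CPM (2.33, edgeR, SE 0.21, adjusted p = 6.90e-06). Of the pathway genes listed, 36 were tested, 13 were higher and 6 lower in T3M-4, a share near the 55.7% of all genes called (4718 higher, 3899 lower). CNTFR, the ciliary neurotrophic factor receptor chain, was at 3.70 to 12.7 CPM in AsPC-1 and at most 0.0506 in T3M-4. IL31RA, the interleukin 31 receptor chain, was at 0.798 to 1.77 CPM in T3M-4 and at most 0.0367 in AsPC-1. PIM1 was lower in T3M-4, at 1.05 to 1.73 against 8.74 to 16.1 CPM, and VEGFA was higher, at 196 to 252 against 26.0 to 45.1 CPM.

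**Figure D4:**
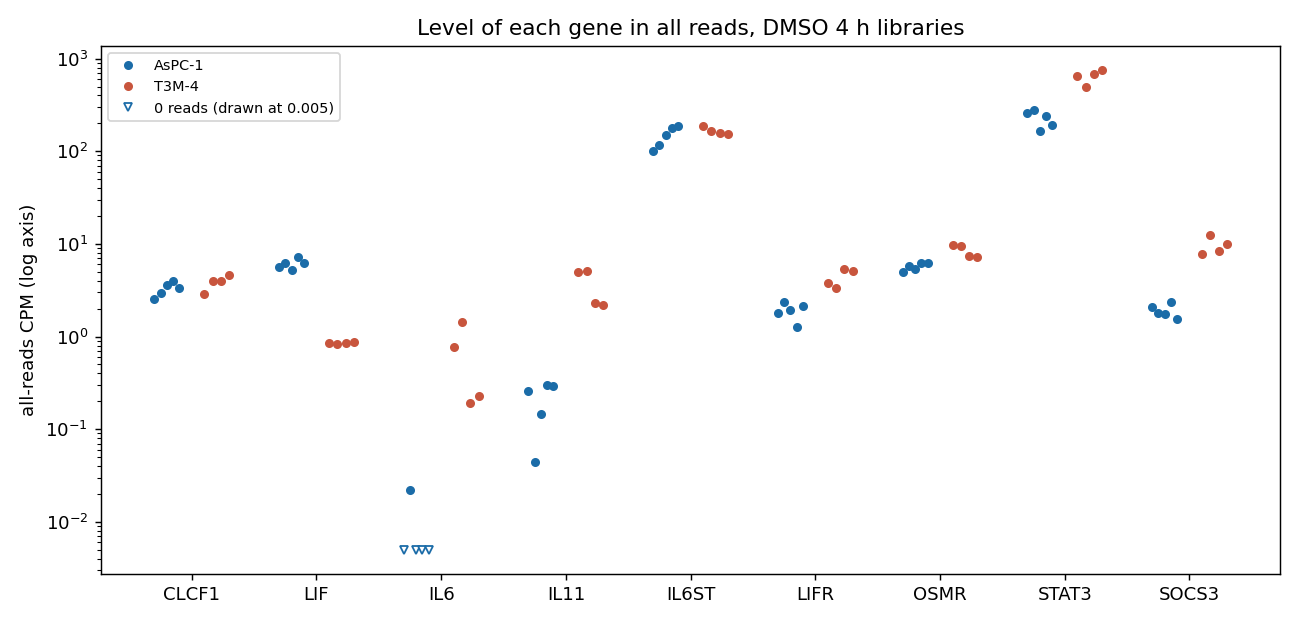
CPM of all reads (log axis, TMM-scaled over both lines) of the 9 genes in each DMSO library at 4 h, AsPC-1 in blue and T3M-4 in red. Open triangles are libraries without a read, drawn at 0.005 because a log axis has no 0. LIF is higher in AsPC-1 in every library, IL6, IL11, LIFR, OSMR, STAT3 and SOCS3 are higher in T3M-4 in every library, and CLCF1 and IL6ST overlap.

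The labelled share, the percentage of a gene's reads in a library that carried a T>C conversion, was higher for CLCF1, LIF and SOCS3 than for the receptor chains and STAT3 in every DMSO library of both lines. In T3M-4 the share in DMSO was 84.5% ± 2.58 (SD, n = 4) for SOCS3, 74.7% ± 1.81 for CLCF1 and 71.2% ± 7.82 for LIF. It was 56.4% ± 35.7 for IL6, on few reads, 42.2% ± 3.16 for IL11, 18.7% ± 7.03 for LIFR, 17.9% ± 3.29 for IL6ST, 15.7% ± 1.203 for OSMR and 6.17% ± 1.33 for STAT3. CLCF1 and LIF overlapped in this order, as did LIFR, IL6ST and OSMR. In AsPC-1 the share was 63.8% ± 2.31 (SD, n = 5) for LIF, 55.4% ± 5.22 for CLCF1, 54.9% ± 3.72 for SOCS3, 31.5% ± 11.3 for LIFR, 17.7% ± 1.98 for IL6ST, 16.2% ± 1.87 for OSMR and 7.94% ± 2.95 for STAT3. IL11 gave 0% to 100% there, on few reads. Genes differ in the number of T in the counted stretch, so shares of different genes are not a scale of RNA age.

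Between the lines, the share of CLCF1 was higher in T3M-4 by 19.3 percentage points and that of SOCS3 by 29.6 points, both with no overlap of libraries (exact two-sided permutation test, p = 0.00794, the smallest this design can give, adjusted p = 0.0317 over 8 genes). The other 6 genes had an adjusted p of 0.190 or more. The labelled part of the whole library was 12.4% in T3M-4 and 10.05% in AsPC-1. Once each share was divided by that of its library, 3 genes differed between the lines. The divided share of CLCF1 averaged 6.09 in T3M-4 and 5.50 in AsPC-1, and its libraries then overlapped. That of SOCS3 averaged 6.91 and 5.46. Undivided, with NEG in place of DMSO libraries 4 genes differed. Leaving out 1 library gave 0 to 3 genes, and a group of 3 against 5 can no longer give so small a p.

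After treatment, the share was tested in 40 pairs of gene and comparison. In AsPC-1, 4 h of CB-6644 left it lower for LIF, at 56.4% ± 3.27 against 63.8% ± 2.31 (n = 5 each), and for OSMR, at 10.7% ± 0.550 against 16.2% ± 1.87, with no overlap (exact permutation test, adjusted p = 0.0397 for both). This adjusted p depends on 6 pairs after NVP-2 in AsPC-1 that had the same smallest p in the family of 40. The labelled part of the whole library was 8.51% ± 0.254 after CB-6644 and 10.05% ± 0.624 in DMSO. After NVP-2 the labelled part of the whole library was 1.57% ± 0.239 in AsPC-1 and 2.24% ± 0.417 in T3M-4 (12.4% ± 1.56 in T3M-4 DMSO). Once each share was divided by that of its library, 0 of the 40 pairs were called, those after NVP-2 included. Undivided, after NVP-2 in AsPC-1 the share was lower for 6 of 8 genes (exact permutation test, adjusted p = 0.0397 for each): CLCF1 at 13.8% ± 3.32, LIF at 7.11% ± 1.83, SOCS3 at 19.4% ± 14.2, IL6ST at 2.33% ± 1.17, OSMR at 1.41% ± 0.509 and STAT3 at 0.606% ± 0.368 (n = 4). In T3M-4, 8 of 9 genes, all but IL6, had every NVP-2 library below every DMSO library, with CLCF1 at 7.33% ± 6.45 and LIF at 10.2% ± 7.28. None of the 8 was called (exact permutation test, adjusted p = 0.0635 for each), at an unadjusted p of 0.0286 that is the smallest 4 against 4 libraries can give. How many of all genes fell in this way was not counted. The labelled part of the whole library fell as well, so neither count is read as a trait of these genes.

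After dTAG the share gives a description only. CLCF1 in T3M-4 was at 70.0% ± 8.16 after dTAG and 75.8% ± 3.94 after NEG, and all reads were lower too, where the 4 dTAG libraries held 1.33, 1.32, 1.03 and 0.940 CPM and the NEG libraries 5.0, 2.98, 4.26 and 3.48. LIFR in T3M-4 had 22.5% ± 2.91 after dTAG and 12.9% ± 7.16 after NEG, and IL11 24.8% ± 8.18 and 42.4% ± 10.6. In AsPC-1 the shares of all 7 genes with regular reads were lower in the mean after dTAG, for example LIF at 46.1% ± 2.83 against 56.9% ± 4.32 and SOCS3 at 49.0% ± 5.71 against 56.2% ± 3.24, as was the labelled part of the whole library, at 8.001% ± 0.337 against 9.30% ± 0.688. The all-read column of 1 AsPC-1 dTAG library, 3-1, was identical to a T>C column of another library and was left out of these shares, so n was 9 there.

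Across the groups the T>C CPM of CLCF1 spanned a wider range in T3M-4 than in AsPC-1, which is a description only. The dTAG group, which adds to the range in T3M-4, is part of the comparison that chose the gene. The difference between lines after NVP-2 was not called, as given above, and CPM were scaled within each line. In T3M-4 the mean T>C CPM was 23.5 ± 7.22 in DMSO, 22.9 ± 5.99 in NEG, 19.7 ± 5.78 after CB-6644, 5.87 ± 1.098 after dTAG and 3.56 ± 3.69 after NVP-2 (SD, n = 4 each). The first 3 groups overlapped with each other, and dTAG and NVP-2 overlapped with each other. In AsPC-1 the order was DMSO at 4 h (17.9 ± 2.97, n = 5), CB-6644 at 4 h (13.1 ± 3.63, n = 5), NEG (12.2 ± 3.05, n = 10), dTAG (11.5 ± 2.62, n = 10), DMSO at 12 h (10.4 ± 1.29, n = 4), CB-6644 at 12 h (9.24 ± 2.25, n = 4) and NVP-2 (7.91 ± 3.41, n = 4), and each group overlapped with its neighbours in that order. DMSO at 4 h and at 12 h did not overlap, and they belong to different batches.

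Genes whose T>C level went with CLCF1 over all 62 libraries were ranked by Pearson's r of log2(T>C CPM + 1), each library set against the DMSO mean of its line, among 9842 genes. The points share treatments, depth and line, and no p is attached. RHOB, a small GTPase gene with short-lived RNA, had the highest r at 0.793, followed by SERTAD2 (0.768), AVPI1 (0.767), PET117 (0.750) and NKX2-1 (0.749). Without the NVP-2 libraries these genes ranked 22, 66, 19, 170 and 310, and in T3M-4 alone 29, 102, 8, 26 and 63, so none stayed among the first 5 in either. Of the other genes of the pathway chain, SOCS3 ranked 20 with an r of 0.719, LIF had 0.42, IL6ST 0.40, IL11 0.30, OSMR -0.06, STAT3 -0.27 and LIFR -0.44.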

How the data were processed

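SLAM-seq was read from 62 libraries, prepared with a 3′ mRNA kit after 2 h of 4sU. The authors mapped single-end reads of 100 bases to hg38 with slamdunk at its defaults and summed reads over the GENCODE v44 3′UTR exons of each gene. The deposited values are raw counts per gene and library, of T>C reads and of all reads, in separate tables for each line. They are not normalized, and no spike-in was added. 1 column with values was not used: the all-read column of AsPC-1 dTAG library 3-1 is identical to the T>C column of another library (replicate 2 of DMSO at 12 h) and lies below the library's own T>C counts in 8047 genes. Samples were grouped by their labels.

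The 9 genes, the gene lists and the tests were chosen with earlier results of these data known. Genes passing edgeR's filterByExpr on a comparison's libraries were scaled by TMM and tested by edgeR 4.0.16 (quasi-likelihood, R 4.3.3) with Benjamini-Hochberg adjustment over all of them. SE is the absolute log2 fold change over the square root of F. Line differences were interaction terms, given for genes passing the filter in each line. Labelled shares were compared by exact two-sided permutation tests. Besides the 9, up to 6 called pathway genes with the smallest p per comparison could be named (up to 3 by unadjusted p where none was called), and the 5 genes most correlated with CLCF1. Scripts were tested on simulated counts. Alternatives were DESeq2 1.42.0, other scalings, filters, controls, batches and blocks, and each library left out in turn. For dTAG in AsPC-1 whole experiments were left out in place of single libraries. For the dTAG line difference only T3M-4 libraries were left out.

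Pairing was checked by correlating same-numbered libraries' deviations from their group means. Experiment numbers gave 0.398, 0.62 and 0.459 for dTAG in AsPC-1, and in T3M-4, where the labels give each experiment its own batch, 0.511 for dTAG, 0.488 for CB-6644 and 0.305 for NVP-2. The 4 numbers of the 12 h libraries gave 0.347 to 0.626. These were taken as pairs, as were full labels for dTAG in both lines (0.147 to 0.529). For NVP-2 in AsPC-1 the 2 experiments gave -0.00763 and were not taken as pairs. Libraries of that line given CB-6644 for 4 h reached 0.451, within the range of the values taken as pairs. They were left unpaired all the same, although this check does not speak against pairing them. Blocks entered only as alternatives, so the SEs and p-values of the main fits ignore any pairing. For these CB-6644 libraries the experiment block called 0 genes, and sums per experiment with the block called 15.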

Additional observations from a re-analysis of the deposited data

Results flagged for a closer look

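Among 90 groups of 4 to 10 libraries with a median of at least 10 T>C reads of the gene, 6 held a library far from the rest, where chance alone marks about 1 group in 20. For CLCF1, replicate 1 of AsPC-1 CB-6644 at 12 h had 12.58 T>C CPM and the other 3 had 7.755 to 8.57. CLCF1 was at 4.798 in AsPC-1 NEG library 1-4, below the 10.07 to 15.87 of the other 9. LIF was at 6.667 in T3M-4 dTAG library 2-2, above the 2.196 to 2.761 of the other 3. IL6ST stood apart in 3 groups: replicate 2 of AsPC-1 CB-6644 at 12 h had 243.6 (others 190.7 to 194.8), T3M-4 CB-6644 library 1-2 had 201.4 (others 274.1 to 275.8), and T3M-4 NEG library 2-1 had 282.7 (others 221.9 to 232.0).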

How the results depend on the processing

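Of the values of the 9 genes, 669 kept their direction and call under the alternatives that keep every library, 13 reversed, 16 gained and 12 lost the call, and 3 moved. With a library left out, or an experiment for dTAG in AsPC-1, 945 were kept, 1 gained and 25 lost the call. A change of sign within 1 SE of 0 with no call is not counted as a reversal. Where a value changed, the cause was not tested.

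Numbers of genes called changed as follows. DESeq2 called 478 for dTAG in AsPC-1 (281 by edgeR), 340 in T3M-4 (112, and 66 higher to 274 lower in place of 12 to 100) and 34 for the line difference (6, and 13 to 21 in place of 1 to 5). For CB-6644 it called 5 in T3M-4, 20 at 12 h and 4 for the line difference (each 0), for NVP-2 594 for the line difference (112), and in all reads 2707 in AsPC-1 (1667, and 1114 to 1593 in place of 484 to 1183) and 1473 in T3M-4 (807, and 277 to 1196 in place of 38 to 769). Scaling by all reads gave 1190 for dTAG in AsPC-1, 24 for its line difference, and 10658 and 10536 for NVP-2 in AsPC-1 and T3M-4. The line difference of NVP-2 then split 41 to 45 in place of 39 to 73, and medians of all genes moved by -0.22 for CB-6644 at 4 h in AsPC-1, 0.17 for its line difference and 0.18 for that of NVP-2. All reads in place of T>C reads gave 111, 3 and 2 for dTAG in AsPC-1, T3M-4 and their difference, 2 for CB-6644 in T3M-4, and 1667, 807 and 1 for NVP-2. For dTAG, batch 1 alone gave 103 in AsPC-1 and 38 in T3M-4, and batch 2 alone 16 in AsPC-1. A block by 3 sets from clustering AsPC-1 libraries gave 801. NVP-2 in all reads of AsPC-1 called 967 against the NEG libraries of experiment 3 and 662 against DMSO at 12 h.

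With a replicate block by experiment or by full label, dTAG called 447 or 867 genes in AsPC-1, 354 or 298 in T3M-4 and 29 or 81 for the difference. Summed per experiment with the block, dTAG in T3M-4 called 292 and CB-6644 at 4 h in AsPC-1 15. NVP-2 with the experiment block called 225 for the line difference and 2476 in all reads of T3M-4. The full-label block gave 2626 there and 988 in all reads of AsPC-1. The full-label block, whose numbers are not pairs for NVP-2, ended the calls of CLCF1 (-1.16, edgeR adjusted p = 0.0971) and PIAS1 (0.85, edgeR adjusted p = 0.0731) in AsPC-1 and LIFR (1.42, edgeR adjusted p = 0.0843) in T3M-4. It added FOSL2 for the dTAG line difference (-0.90, edgeR adjusted p = 0.00434), the summed fit ended CCND1 for dTAG in AsPC-1 (-0.52, edgeR adjusted p = 0.0523), and IL11, IL6ST and LIFR were added as given above. The block changed no other call.

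Log2 fold changes that reversed were, scaled by all reads, IL6ST -0.085 (dTAG, AsPC-1) and 0.11 (dTAG, line difference), and for NVP-2 IL11 -1.29, STAT3 -2.73 and PIAS1 -2.04 in AsPC-1 and LIFR -1.48, OSMR -2.14, STAT3 -1.70, JAK1 -0.99 and PIAS1 -1.35 in T3M-4. In all reads they were OSMR 0.13 (CB-6644 4 h, AsPC-1), IL11 -0.53, CCND1 0.30 and PIAS1 -0.34 (NVP-2, AsPC-1), PIAS1 -0.043 (NVP-2, T3M-4), and STAT3 -0.16, SOCS3 0.96, CCND1 -0.23 and MCL1 0.68 (NVP-2, line difference). In batch 2 alone they were LIF 0.016 (dTAG, AsPC-1) and OSMR -0.064 (NVP-2, T3M-4). With NEG in place of DMSO, 4 labelled shares differed between lines. Divided by the library's share, 0 differed after treatment.

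With 1 library left out, the genes called ranged from 22 (without dTAG 2-1) to 70 for dTAG in T3M-4, where every library left out lowered the count by over 1.5 times, and from 1 to 8 for its line difference (2, 1 and 2 without T3M-4 dTAG 1-1, NEG 2-1 and NEG 2-2). With 1 experiment left out they ranged from 36 (without experiment 1) to 256 for dTAG in AsPC-1 (103 without experiment 3). CB-6644 called 0 to 1 at 4 h in AsPC-1 (1 without DMSO 2-1) and 0 to 1 for the line difference (1 without T3M-4 CB-6644 2-1). NVP-2 ranged from 2663 to 3517 in AsPC-1, from 2168 (without DMSO 2-2) to 3693 in T3M-4, and from 50 (without AsPC-1 NVP-2 1-2) to 285 (without T3M-4 NVP-2 1-1) for the difference, where 10 of 17 libraries moved it by over 1.5 times. In all reads NVP-2 ranged from 837 (without NVP-2 2-2) to 2063 in AsPC-1 and from 492 (without NVP-2 2-1) to 823 in T3M-4. The lines differed in 7850 to 8495 genes. Labelled shares ranged from 0 to 3 between lines, and from 0 (without any AsPC-1 DMSO or NVP-2 library) to 8 after treatment.

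Depth limited IL6 and IL11 in AsPC-1 and all genes after NVP-2, which had the lowest T>C totals. AsPC-1 NVP-2 and its DMSO libraries came from different batches, so batch and treatment cannot be told apart by that comparison alone. Against controls of the NVP-2 batch SOCS3 stayed called and CLCF1 in T>C reads did not, as given above.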
